A study of Apis mellifera with 9 samples.

Results

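The regions described here carried a peak of H3K27me3 in the ovaries of queen-less honeybee workers and in no other ovary that was profiled. H3K27me3, trimethylated lysine 27 of histone H3, was profiled by sequencing of immunoprecipitated chromatin (ChIP-seq), and each sample is represented by 1 list of peaks. Overlapping peaks of the 6 lists (1 base or more) were joined, which gave 53589 regions. A region was kept if it held a peak of both queen-less workers and no peak of the 4 other samples, which left 685 regions, or 1.28% of all. They are called queen-less-only regions below, a name that refers to the peak calls alone. The absence of a call in a list does not show that the mark was absent from those ovaries.

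There were 3 groups of 2 ChIP samples, all from ovaries of female Apis mellifera. Queen-less workers came from frames of brood and bees that had been moved to a box without a queen, were sampled 2 to 4 weeks later and have an ovary score of 3 in the labels. Queen-right workers lived with a laying queen and have an ovary score of 0. Queens were egg layers of about 12 months of age with no ovary score. No group carried a transgene, a mutation or a drug, and repeated immunoprecipitations were combined for each sequenced sample. Loss of the queen and activation of the ovary go together in the queen-less workers and cannot be told apart. The labels do not say how many bees went into a sample. The extract protocol calls the 2 samples of a group biological duplicates.

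H3K27me3 is deposited by Polycomb group proteins and is known for marking genes that are kept silent, often as broad domains that span several genes. In worker honeybees the ovary is held inactive by pheromone of the queen, and when the queen is lost some workers activate their ovaries and lay eggs. The gene content of the regions was not analysed here, because the gene table at hand has 40 chromosome or scaffold names and 0 of them occur in the peak lists. For the same reason no sequence is shown.

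The lists differed in how much sequence they covered, and this bears on every count below. Peak numbers ran from 48654 to 50922 and the covered sequence from 48.8 to 78.0 Mb, on 1834 scaffolds with a span of 220.2 Mb. Queen-less worker 2 covered the most, 35.4% of the span, and queen-less worker 1 covered 26.9%. The 2 samples with the least coverage, queen-right worker 2 and queen 2, covered 22.2% and 24.3%. Read depth is unknown, since the lists hold no counts.

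Queen-less-only regions were a small remainder of the sequence that both queen-less workers shared. Both queen-less lists called 33387 regions, and 24847 of these (74.4%) were called in all 6 lists. A further 3722 were called in 3 of the 4 other lists, 2725 in 2 and 1408 in 1. The 685 regions made up 2.05% of the regions common to both queen-less workers. They spanned 0.345 Mb in total, or 0.369% of the bases in merged regions. The corresponding sets were 461 regions in queen-right workers alone (0.86% of all regions) and 141 in queens alone (0.263%).

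A region found in 1 queen-less worker and in neither of the other groups was usually not found in the second queen-less worker. Queen-less worker 1 had 2524 regions that were absent from the 4 lists of the other groups, and 27.1% of them were also called in queen-less worker 2. Queen-less worker 2 had 3522 such regions, of which 19.4% were called in queen-less worker 1. The regions of queen-less worker 2 alone had a median width of 204 bases and those of queen-less worker 1 alone 369 bases. The same shares were 17.8% and 36.6% for queen-right workers 1 and 2, and 15.9% and 32.9% for queens 1 and 2. In queen-right workers and queens the list with more covered sequence had the lower share, as in queen-less workers.

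The count of 685 depended on single lists. Without queen-right worker 1 it rose to 1225 and without queen 1 to 1342. With only queen-less worker 2 to represent the queen-less state it was 3647, and with only queen-less worker 1 it was 2681. Without queen-right worker 2 or queen 2 it was 815 and 826. Keeping the top-scoring peaks of each list up to the same number of covered bases left 37 queen-less-only regions, and these overlapped 7 of the 685. This setting removed peaks of queen-less worker 2 most, and kept a peak there in 9 of the 685 regions, against 249 in queen-less worker 1.

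Most queen-less-only regions were narrow. The median width was 363 bases and the middle 50% lay between 248 and 655 bases, with a minimum of 158. For scale, the shortest peak in the lists was 147 bases, the extension length used in peak calling. Regions called in all 6 lists had a median width of 1681 bases, and the median of all 53589 regions was 755 bases. Regions called only in queen-right workers (445 bases) and only in queens (349 bases) were of similar width to those of queen-less workers. In queen-less workers 59 regions were wider than 1 kb and 59 were under 200 bases. These widths follow in part from the rule, since a wide region has more chances to meet a peak of another list, and no test was run on them.

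**Figure D1:**
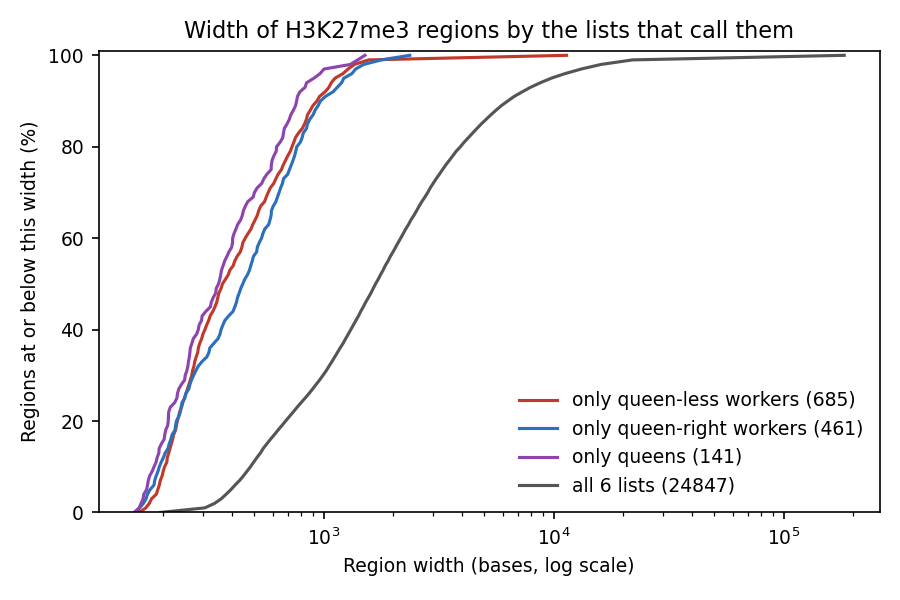
Percent of regions (y axis) at or below a given width in bases (x axis, log scale), for regions called only in queen-less workers, only in queen-right workers, only in queens, and in all 6 lists. The 3 sets that belong to 1 group lie close together, with medians of 363, 445 and 349 bases, and all lie to the left of the regions called in all 6 lists, with a median of 1681 bases.

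In 681 of the 685 regions each queen-less list contributed a single peak. The 2 peaks overlapped without matching exactly. The median share of a region that lay under peaks of both lists was 62.6%, and 437 regions (63.8%) had at least 50% of their bases under both. In 305 regions the peak of 1 list covered the whole region. Neither list was consistently the wider: queen-less worker 1 covered more bases in 333 regions and queen-less worker 2 in 345, with median covered lengths of 286 and 241 bases. The overlap was lower in wider regions, which follows in part from the joining, since poorly matched peaks join into a wider region. It had a median of 75.5% in the 177 regions of up to 250 bases, 60.4% in the 260 regions over 250 and up to 500 bases, 39.4% in the 189 regions over 500 and up to 1000 bases and 21.8% in the 59 regions over 1 kb. In most of the wide regions, therefore, the larger part lay under a peak of 1 worker only.

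The peaks ranked low within their own lists. The score is the value that the peak caller gave to each peak, and its percentile is the share of peaks of the same list with an equal or lower score. In queen-less worker 1 the regions had a median score of 18 and a median percentile of 26.2. In queen-less worker 2 the median score was 34 and the median percentile 14.96. Scores of different lists are on different scales, so ranks were compared between lists by percentile. Where scores of both workers are printed together, here and below, they do not compare strength between them. The lower of the 2 percentiles had a median of 10.2, compared with 58.3 for regions called in all 6 lists. Without queen-less worker 2, when only the percentile in queen-less worker 1 is left, the median was 17.96. At equal covered bases it was 64.4. That cut kept the top-scoring 67.1% and 36.1% of peaks of queen-less workers 1 and 2. Percentiles still refer to the full lists, so a high value there follows from the cut. In the other single-group sets the lower percentile was also low, with medians of 12.4 for queen-right workers and 7.89 for queens.

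The lower percentile also decreased stepwise with the number of other lists that called a region. Among regions of both queen-less workers its median was 28.1 with 3 other lists, 18.7 with 2, 12.5 with 1 and 10.2 with none. Width followed the same order, with medians of 797, 656, 512 and 363 bases. The queen-less-only regions therefore formed the low end of a gradient and not a set apart in width or rank. The regions were chosen by their calls, and a call depends on the score, so this order is a description.

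Agreement between both workers on the rank of a region was weak. Pearson's correlation of the percentiles across the 685 regions was 0.280 and Spearman's correlation of the scores was 0.221. In the 461 regions of queen-right workers alone the values were 0.538 and 0.472, and in the 141 regions of queens alone 0.563 and 0.539. These are correlations across regions of a pair of libraries, and regions are not replicates. In 266 queen-less-only regions (38.8%) both percentiles were under 25, and in 18 (2.63%) both were at least 50. In queen-right workers alone 60 of 461 regions (13.0%) had both percentiles at 50 or above, and in queens alone 4 of 141 (2.84%). A score of at least 20 in both lists was reached by 246 of the 685 regions (35.9%), and by 35.6% and 39.7% of the regions of queen-right workers alone and queens alone. Among all peaks, 69.5% and 96.9% reached it in queen-less workers 1 and 2. The shares were 84.7% and 77.4% in queen-right workers and 86.8% and 90.7% in queens. This cut is thus not on a common scale, and the near-equal shares do not compare strength between groups.

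**Figure D2:**
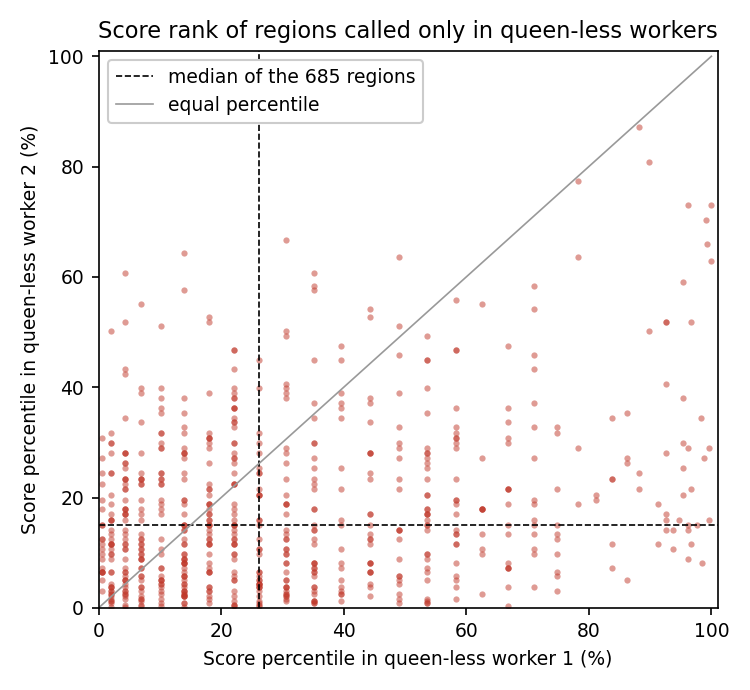
Score percentile of each of the 685 queen-less-only regions within the list of queen-less worker 1 (x axis, percent) and of queen-less worker 2 (y axis, percent). Each point is a region, the dashed lines are the medians of 26.2 and 14.96, and the grey line marks equal percentiles. Most points lie near the lower left, and few exceed 50 on both axes (18 regions at 50 or above in both).

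A few regions ranked high in both workers. The highest lay on scaffold NW_003378115.1 from 175192 to 175450, a region of 259 bases with scores of 34 and 130 in queen-less workers 1 and 2, at percentiles of 88.1 and 87.2. The nearest peak of another list lay 1719 bases away, in queen 1. The next lay on NW_003378204.1 from 170209 to 170421 (213 bases), with scores of 35 and 116 and percentiles of 89.9 and 80.8. It stood further apart, with the closest peak of any other list at 6082 bases, in queen 2. On NW_003377934.1 from 398368 to 398641 (274 bases) the scores were 30 and 110, at percentiles of 78.2 and 77.4. All 3 were short, and in each the peak of queen-less worker 1 lay inside that of queen-less worker 2.

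The other 3 of the 6 highest-ranking regions were more uneven between both workers. The region on NW_003377945.1 from 344612 to 344985 had scores of 41 and 103 and percentiles of 96.1 and 73.1, and another queen-less-only region lay 1662 bases from it. The region on NW_003378003.1 from 1935 to 2146 had the highest score of any queen-less-only region in queen-less worker 1, 79, at percentile 99.97, and 103 in queen-less worker 2. Peaks of all 4 other lists lay within 1167 bases of it, the nearest at 817. The last lay on NW_003378621.1 from 32802 to 34472 and was also among the 6 widest, at 1671 bases. Queen-less worker 1 covered 1667 of them and queen-less worker 2 only 235.

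The widest region stood far from the rest. It lay on NW_003378174.1 from 344555 to 355932 and was 11378 bases wide, while the next was 2295 bases. Queen-less worker 1 had 3 peaks in it, of 2352, 3683 and 1868 bases, with scores of 14, 15 and 12. Queen-less worker 2 had a peak of 1213 bases with a score of 27 and another of 9335 bases with a score of 19. Together both lists covered 62.2% of the region in common. The scores ranked low, at percentiles of at most 14.0 and 8.90, and neither list called the region as 1 continuous peak. It lay within a stretch of 33419 bases that held no peak of the 4 other lists, and the nearest such peak, in queen-right worker 1, was 694 bases from its edge. Regions of at least this width were otherwise nearly all shared: 967 of the 970 were called in all 6 lists.

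The other wide regions showed how differently both workers could contribute. On NW_003377884.1 from 417694 to 419988 (2295 bases) queen-less worker 2 covered the whole region with a score of 30 and queen-less worker 1 covered 884 bases with a score of 12. On NW_003378329.1 from 47295 to 49192 (1898 bases) the lists covered 1898 and 1726 bases, with scores of 21 and 35, and shared 90.9% of the region. The nearest peak of another list was 8027 bases away. On NW_003378104.1 from 151521 to 153364 (1844 bases) they covered 1812 and 1238 bases with scores of 24 and 72, at the closely matched percentiles of 53.6 and 49.3. On NW_003378213.1 from 14521 to 16306 (1786 bases) queen-less worker 1 covered all of it with a score of 41 and queen-less worker 2 only 149 bases with a score of 27.

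Most queen-less-only regions lay within 10 kb of a region called in all 6 lists. There are 24847 such shared regions on a span of 220.2 Mb. The same distance was not computed for all regions or for other positions, so closeness particular to the queen-less-only regions is not shown. The nearest region called in all 6 lists was a median of 2601 bases away over the 646 regions whose scaffold held one, with the middle 50% between 967 and 7024 bases. It lay within 1 kb of 170 regions (24.8%) and within 10 kb of 518 (75.6%). The share within 1 kb was 16.0% without queen-less worker 2, 17.6% with a score of at least 20, 12.9% with 50% coverage and 35.1% at equal covered bases. In queen-right workers alone the shares were 21.3% and 74.4%, with a median of 2744 bases. In queens alone they were 17.0% and 60.3%, with a median of 5919 bases. The number of shared regions is the same for all 3 sets, so the distances can be set side by side, but no test was run since the sets were chosen by the calls themselves.

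The nearest peak of any of the 4 other lists was closer, at a median of 1138 bases over 665 regions. Such a peak lay within 1 kb of 288 regions, most of them (260) at 500 bases or more and 28 at less than 500. A further 330 regions had it at 1000 to under 5000 bases, 29 at 5000 to under 10000 bases and 18 at 10 kb or more. By sample, the nearest peak was a median of 1750 bases away in queen-right worker 1, 1959 in queen-right worker 2, 1451 in queen 1 and 1733 in queen 2. Queen 1 held the closest peak for 223 regions and queen-right worker 1 for 208, and these are the 2 of the 4 lists with the most covered sequence. Around a queen-less-only region the stretch without a peak of the 4 other lists had a median of 4561 bases, over the 637 regions with such a peak on both sides. Leaving out the 288 regions with such a peak within 1 kb, 397 of the 685 remained. These include the 20 regions on scaffolds without any peak of the 4 other lists. A scaffold end within 1 kb was not counted against a region.

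At the edge of the rule, some regions lay within a few bases of a peak of another list. The region with the smallest gap lay on NW_003377974.1 from 410267 to 410939, where a peak of queen 1 began 5 bases from it, and its score was 19 in each queen-less list. On NW_003377960.1 from 304626 to 304899 the gap was 29 bases, to peaks of both queens, and on NW_003378010.1 from 2610303 to 2611149 it was 53 bases, to queen 1. Just outside, a region on NW_003377871.1 from 6953 to 7716 scored 31 and 73 in the queen-less lists and held a single peak of queen 1 of 147 bases with a score of 33. It is 1 of 38 regions with this fewest number of bases under a single other list. By overlap, an example chosen after its values were seen, a region on NW_003378096.1 from 2115387 to 2116345 was left out because a peak of queen 1 shared 10 bases with the queen-less peaks. Such cases were few. Of the 1408 regions called in both queen-less workers and 1 other list, 23 shared at most 100 bases with it, and the median shared length was 243 bases. The other list was queen 1 for 635 regions, queen-right worker 1 for 510, queen 2 for 135 and queen-right worker 2 for 128.

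The regions farthest from any other list ranked low in at least 1 worker, with a lower percentile of at most 18.7. On NW_003378120.1 no peak of another list lay before the region. On NW_003378305.1 and NW_003378235.1 none lay after it. For these regions the distance is to a single side, and isolation on the other side is not shown. On NW_003378120.1 from 12935 to 13150 (216 bases, scores of 15 and 48) the nearest peak of the other lists was 77382 bases away, in queen 1. On NW_003378305.1 from 53546 to 54092 (547 bases, scores of 12 and 18) it was 43769 bases away and on NW_003378235.1 from 111865 to 112103 (239 bases, scores of 20 and 20) 39596 bases, both in queen 1. On NW_003378187.1 from 221977 to 222494 (518 bases) the distance was 21329 bases, to queen-right worker 1. There both queen-less peaks nearly coincided, with 95.2% of the region in common and scores of 28 and 38, at percentiles of 71.0 and 18.7. The nearest region called in all 6 lists was 242113 bases away.

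In every sample, peaks covered less of the surroundings of queen-less-only regions than of the whole span. Within 10 kb on either side, leaving out the regions themselves, peaks covered 16.9% and 22.9% of the sequence for queen-less workers 1 and 2, 15.7% and 11.7% for queen-right workers 1 and 2, and 17.8% and 13.8% in queens 1 and 2. Over the whole span the same samples covered 26.9%, 35.4%, 29.4%, 22.2%, 28.6% and 24.3%. Coverage near the regions relative to the span was thus 0.628 and 0.646 for the queen-less pair, 0.533 and 0.529 for the queen-right pair, and 0.622 and 0.566 for the queens. The queen-right workers were the lowest of the 3 groups on this ratio and did not overlap with the others, while queen 1 lay close to queen-less worker 1. Around regions of queen-right workers alone the queen-right pair had ratios of 0.649 and 0.574, the queen-less pair 0.471 and 0.507, and the queens 0.461 and 0.429. Around regions of queens alone the queens had 0.529 and 0.487, the queen-less pair 0.536 and 0.515, and the queen-right pair 0.381 and 0.412. A region free of calls in 4 lists is more likely to lie where those lists have few peaks. A part of these differences therefore follows from the rule. Joining also leaves a gap beside each region that is free of peaks of all 6 lists. Within 1 kb the queen-less pair itself covered only 3.64% and 5.51%. The flanks of all regions were not measured, so sparseness particular to the queen-less-only regions is not shown. No test was run.

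**Figure D3:**
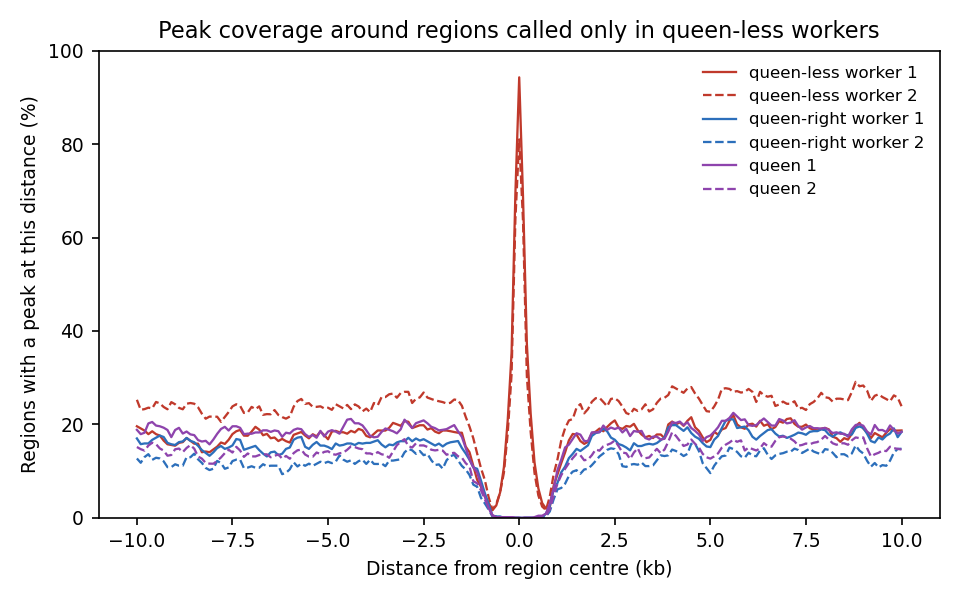
Percent of the 685 queen-less-only regions with a peak (y axis) at a given distance in kb from the region's centre (x axis), in steps of 100 bases out to 10 kb, for each of the 6 lists. At the centre the queen-less workers reach 94.3% and 81.0% and the other lists 0% by the rule. Averaged over both sides, at 1 kb all 6 lists lie between 5.17% and 11.5%, and at 10 kb between 13.7% and 24.6%.

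The queen-less lists were highest at the centre, and the 4 other lists were at 0 there by the rule. At 500 bases from the centre queen-less workers 1 and 2 had a peak at 5.87% and 5.13% of positions and the other samples at no more than 0.297%. At 2 kb the queen-less workers stood at 18.6% and 25.2%, the queen-right workers at 16.7% and 11.4% and the queens at 18.6% and 14.5%. At 5 kb the values were 16.8% and 23.2%, 15.2% and 10.8%, and 18.1% and 13.5% in the same order. Queen 1 thus equalled queen-less worker 1 at 2 kb and lay above it at 5 kb. At both distances queen-less worker 2 was highest and queen-right worker 2 lowest, as over the whole span.

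Shared regions next to queen-less-only regions were also compared. The nearest regions called in all 6 lists numbered 596 and had a median width of 1213 bases, against 1695 bases for the other 24251 shared regions. Queen-less workers 1 and 2 covered 70.4% and 86.8% of their bases, compared with 70.2% and 89.3% elsewhere. Queen-right workers 1 and 2 covered 64.7% and 53.4%, compared with 76.5% and 59.3%. Queens 1 and 2 covered 70.9% and 60.2%, compared with 74.4% and 65.1%. The difference in percentage points, near minus elsewhere, was 0.234 and -2.47 for the queen-less pair, -11.8 and -5.86 for the queen-right pair and -3.51 and -4.94 for the queens. The groups did not overlap on this measure, and of the 6 lists queen-right worker 1 had the most negative value. These shared regions lie beside the members and come from the same lists, so this is no independent test. They were not matched for width, and the measure was not computed beside the other single-group sets. A trait particular to the queen-less-only regions is therefore not shown.

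The next region on either side was less often shared by all samples than elsewhere. Of 1322 neighbouring regions, 33.9% were called in all 6 lists, compared with 47.7% of the neighbours of all regions, and 21.1% were called in a single list, compared with 15.5%. Neighbours of regions called only in queen-right workers gave nearly the same values, 34.1% and 23.6%, and those of regions only in queens 26.1% and 29.7%. A lower share of neighbours called in all 6 lists was thus common to the 3 single-group sets. Both queen-less workers called 58.9% of the neighbours of queen-less-only regions, below the 63.9% for neighbours of all regions. Of these neighbours 48 (3.63%) were themselves queen-less-only, while such regions make up 1.28% of all regions. For the queen-right and queen sets the share of neighbours of the same kind was 2.74% and 0.725%, where these sets make up 0.86% and 0.263% of all regions. The difference was not tested.

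**Figure D4:**
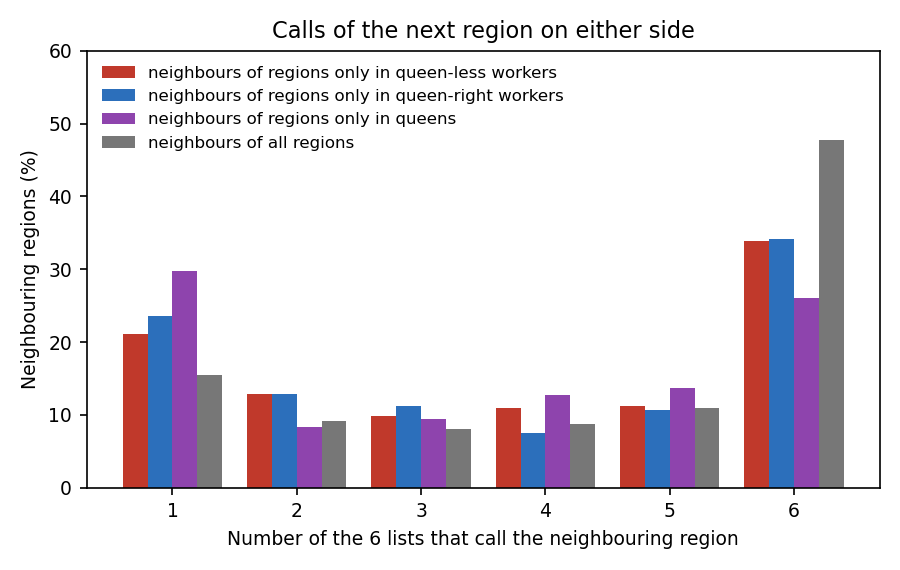
Percent of neighbouring regions (y axis) called in 1 to 6 of the lists (x axis), for the next region on either side of regions called only in queen-less workers, only in queen-right workers, only in queens, and of all regions. Neighbours called in all 6 lists make up 33.9%, 34.1%, 26.1% and 47.7% of the 4 sets.

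With successive regions closer than 10 kb counted as a run, 582 stood alone, 94 formed 47 pairs and 9 formed 3 runs of 3. Another queen-less-only region lay within 10 kb of 103 regions (15.04%) and within 1 kb of 14. Regions of queen-right workers alone had a second such region within 10 kb in 11.5% of cases, and regions of queens alone in 4.26%. The sets differ in size, and no comparison at matched size was made. Without queen-less worker 1 the share was 37.5% over 3647 regions, and without queen-less worker 2 it was 38.6% over 2681. At equal covered bases it was 0% of 37 regions.

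The 3 runs of 3 differed in their surroundings. The shortest lay on NW_003377880.1 from 634200 to 640662, with regions of 209, 190 and 340 bases. Their scores were 29, 28 and 19 in queen-less worker 1 and 31, 28 and 22 in queen-less worker 2. Between the second and the third lay a region of 1398 bases called in all 6 lists and a peak of queen 1 alone. The run on NW_003378056.1 from 73271 to 81699 held regions of 683, 625 and 762 bases and no region shared by all samples. Its scores were 24, 17 and 27 in queen-less worker 1 and 56, 15 and 70 in queen-less worker 2. The first 2 of these were nearly the same in both workers, with 92.1% and 93.3% of the region in common, and a region of queen-less worker 1 and queen 2 lay after them. The nearest region called in all 6 lists was 52285 bases from the run. The run on NW_003377995.1 from 635844 to 649059 had regions of 557, 232 and 1242 bases with scores of 15, 14 and 15 in queen-less worker 1 and 48, 52 and 27 in queen-less worker 2. It was interrupted by 4 regions called in between 1 and 6 lists.

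Queen-less-only regions were spread over 247 scaffolds, which together made up 84.0% of the span. Single regions lay on 100 of these scaffolds, and 44 scaffolds had 5 or more, with 305 regions in all. The mean density was 3.11 regions per Mb. It was 2.48 per Mb on scaffolds over 1 Mb, 4.00 on those of 500 kb to 1 Mb, 3.66 on those of 50 to 500 kb and 3.26 on those under 50 kb. As a share of all regions, queen-less-only regions made up 1.07%, 1.57%, 1.54% and 0.849% in these 4 classes, against the 1.28% over all.

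Some scaffolds held several times more than this. Scaffold NW_003377872.1 (1.66 Mb) had 14 queen-less-only regions among 367, or 3.81%, the highest share among the 89 scaffolds with at least 200 regions, where the median was 1.12% and 5 had none. Its density was 8.44 per Mb. NW_003378088.1, with the same number, spans 4.71 Mb and had 2.97 per Mb, close to the mean. NW_003378021.1 had 11 in 1.08 Mb (10.2 per Mb, 3.47% of its regions) and NW_003377880.1 had 8 in 0.722 Mb (11.1 per Mb, 3.69%). Among shorter scaffolds, NW_003378160.1 had 9 in 0.444 Mb (20.3 per Mb, 5.81% of its 155 regions). NW_003378104.1, which carried the wide region with closely matched percentiles, had 7 in 0.309 Mb (22.7 per Mb, 7.53% of its 93 regions). Scaffolds are not replicates and the densities are given as a description.

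A further 20 regions lay on 18 scaffolds without any peak of the 4 other lists. Span is the farthest peak end, which only queen-less peaks set on these scaffolds, so their true lengths are unknown. The spans had a median of 4752 bases and a range of 300 to 116333, and the regions a median width of 386 bases. The longest span was that of NW_003378201.1, with 2 queen-less-only regions of 284 and 1389 bases. On several with the shortest spans the region filled most of the span, but its own end also set that span. On NW_003382471.1, for example, the region from 19 to 1362 had scores of 46 and 55 at percentiles of 98.3 and 34.5. The number of scaffolds with a peak varied strongly by sample, with 670 for queen-less worker 1, 1654 for queen-less worker 2, 1097 and 1176 for the queen-right pair and 1004 and 949 for the queens. Of 338 scaffolds without a peak of the other groups, queen-less worker 2 had peaks on 279 and queen-less worker 1 on 77, and the 18 described were those with both. How reads were assigned to such scaffolds was not tested.

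Both the membership of the set and its typical width depended on the settings. With peaks closer than 1 kb joined, 372 queen-less-only regions resulted, and these overlapped 363 of the 685. Requiring a score of at least 20 gave 585 regions, of which 246 (42.1%) overlapped the original set. With a list counted only if its peaks covered at least 50% of a region, there were 1283 regions, and 493 (38.4%) were among the 685. Each of the others held peaks of a queen-right worker or a queen that covered less than 50% of it. Lists of equal length gave 706 regions and overlapped 570 of the 685. The median width was between 376 and 393 bases in 4 of these 5 settings, counting that at equal covered bases (383), and 753 bases when 50% coverage was required. Without queen-less worker 1 it was 210 bases and without queen 1 it was 420 bases.

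**Figure D5:**
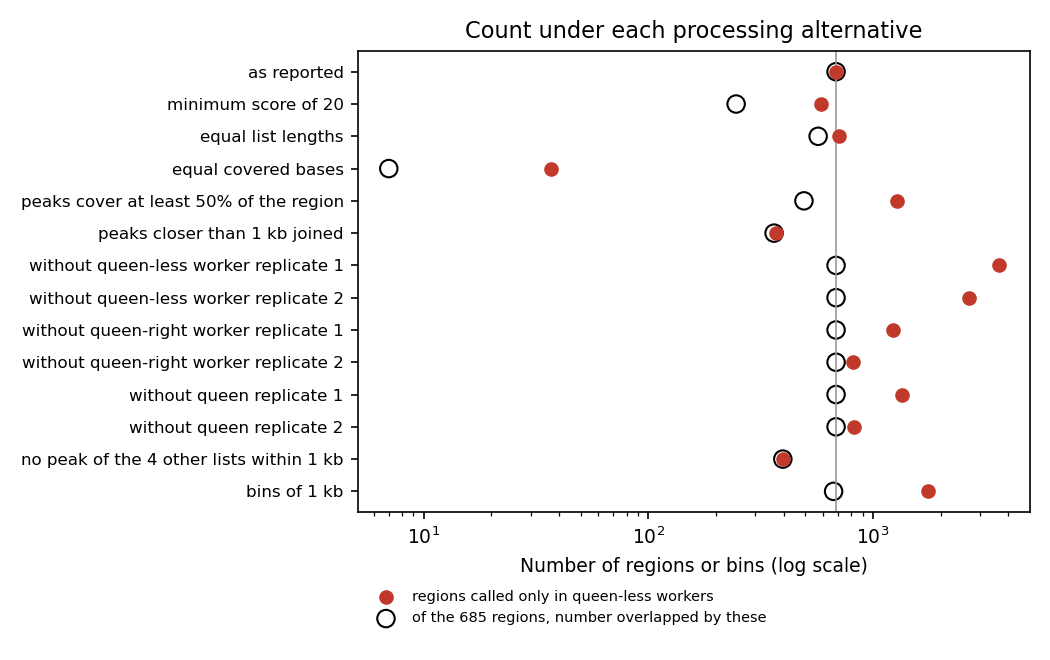
Number of regions, or of bins for the last setting, called only in queen-less workers (filled points, x axis on a log scale) under each processing setting (y axis), and the number of the 685 regions that they overlap (open circles). The grey line marks 685. The count ranges from 37 at equal covered bases to 3647 without queen-less worker replicate 1.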

How the data were processed

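H3K27me3 ChIP-seq was analysed in 6 samples, 2 each of queen-less workers, queen-right workers and queens. The 3 inputs were not analysed here. The authors deposited 1 peak list per sample with a scaffold, start, end and score. Bowtie 1.0, SAMtools 1.5, MACS2 and bedtools are named in the submitters' processing notes, and the names of the peaks carry the settings broad 0.1 and ext 147. The genome build, the read filters and the use of the inputs in calling these peaks are not given in the sources used here. The deposited score has no stated unit. Its minimum was 10 in every list, and it served for ranks and filters inside each list. Depth is unknown, so no counting interval is given. A list with more covered bases gives more calls and fewer absences.

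Regions are numbered from 1 on the scaffolds of the lists. For a region, the score was that of its highest peak in a list, and percentiles always refer to the full deposited list. Scaffold span was the farthest peak end. Gaps count the bases between edges. The regions and lists were chosen with earlier results of these data known. The calls choose the regions, so no test was run, and all values are descriptions. Counting was tested on simulated data, with 100% of 200 planted regions recovered among 53589. The simulated lists held whole merged regions, so this checks the counting of call patterns and not the joining of partly overlapping peaks.

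Regions named in the text were the 6 with the highest lower percentile, the 6 widest, the 4 farthest from peaks of the other lists, those of the 3 largest runs and those nearest to another list, beside examples for scaffolds. The alternatives tried were scores of 20 or more, lists of equal length (48654 peaks), equal covered bases (48.8 Mb), 50% coverage, joining within 1 kb, a 1 kb margin, bins of 1 kb and leaving out each list. Python 3.11.15, NumPy 2.4.6, pandas 2.3.3, SciPy 1.17.1 and matplotlib 3.10.9 were used.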

Additional observations from a re-analysis of the deposited data

How the results depend on the processing

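The number of regions called only in queen-less workers, 685, was within 1.5 times of this value under 4 of 13 alternatives and moved further under 9. It was 37 at equal covered bases and 372 with peaks closer than 1 kb joined. With no peak of the 4 other lists within 1 kb it was 397, and in bins of 1 kb 1763. It was 1283 where a list counted only if its peaks covered at least 50% of a region. That setting admits smaller peaks of the other lists. Leaving out 1 list gave 815 to 3647, and each of these 6 counts is higher by construction, since 1 condition less is set. Equal covered bases kept 18270 of the 50576 peaks of queen-less worker 2 and all 50922 of queen-right worker 2, and the cause of the low count was not tested. Between both queen-less lists the SD was 31.8 bases for the median covered length and 7.97 for the median percentile, each from 2 values. The median width and the median lower percentile each moved by less than these under 8 of 11 alternatives. These SDs are of related measures, not of the region width or the lower percentile themselves. Over these 11 alternatives the share within 1 kb of a shared region was 0% to 35.1%, against 24.8%, and the share with another such region within 10 kb 0% to 38.6%, against 15.04%. The first 0% follows from joining peaks within 1 kb. No paired analysis was possible because the result comes from no test. Unknown read depth limits all counts.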
